A study of Mus musculus with 2 samples.

Results

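Gata1 binding was examined at 10 genes that encode the Tal1 complex and its partners: Tal1, Lyl1, Tcf3, Tcf12, Lmo2, Lmo4, Ldb1, Ssbp2, Ssbp3 and Cbfa2t3. The genes were chosen by what their products do, but with earlier results of these data known, so the list was not blind to the peaks. A peak was assigned to a gene when its midpoint lay in the mm10 gene body or within 100 kb of either end. Of 4135 Gata1 peaks in the series, 22 lay in these windows, and no peak lay in the window of more than 1 of these 10 genes. The peaks came from chromatin immunoprecipitation followed by sequencing (ChIP-seq) of 1 Gata1 library. After 5 days of blood differentiation of mouse embryonic stem cells in embryoid bodies, the cells that expressed both the Runx1-ires-GFP and the Gata1::mCherry reporter were sorted, a population the series calls primitive erythroid. Both libraries of the series, the Gata1 ChIP and the control, came from such doubly positive cells, so every cell studied carried both reporters, and cells of several sorts were pooled for a ChIP. The control is titled input chromatin, although a rabbit IgG is listed as its antibody, and it was not analysed here. The cells were made in culture, and peak positions hold no expression values with which the sorted cell type could be checked.

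Proteins from this list build an assembly on DNA, in which some of them are alternatives to each other. Tal1 or its close relative Lyl1, both tissue-restricted basic helix-loop-helix (bHLH) factors, pairs with an E protein such as the products of Tcf3 (E2A) and Tcf12 (HEB) and binds a short motif called the E-box. The LIM-only protein Lmo2 bridges this pair to Ldb1, a protein that associates with itself and can hold distant sites together, and Gata1 can join through Lmo2 and bind a nearby GATA motif. Ssbp2 and Ssbp3 bind Ldb1 and protect it from degradation, Lmo4 is a LIM-only relative that also binds Ldb1, and Cbfa2t3 (Eto2) is a corepressor of the assembly. The complex is required for the formation of blood and for red cell genes.

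Gata1 peaks lay within 100 kb of 9 of the 10 genes, Lmo4 being the gene with none, against 43.9% of all 21779 nuclear protein-coding genes. A peak lay in the gene body of 6 of the 10, against 9.34% of protein-coding genes, and in the body or within 10 kb for 7 of the 10, against 16.5%. The same 7 genes had one within 50 kb, against 32.0%, and the same 9 within 200 kb, against 58.2%. Cbfa2t3 had 5 peaks, Tal1 and Lyl1 had 4 each, Tcf3 had 3, Ldb1 had 2, and Tcf12, Lmo2, Ssbp2 and Ssbp3 had 1 each. The median was 1.5 peaks per gene, against 0 over all protein-coding genes. The list is unreplicated, every interval is 400 bp wide and none carries a score, so no difference was tested, each site is only called or not called, and a gene without a peak may hold binding below the unstated calling threshold. Read depth is unknown for the same reason.

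**Figure D1:**
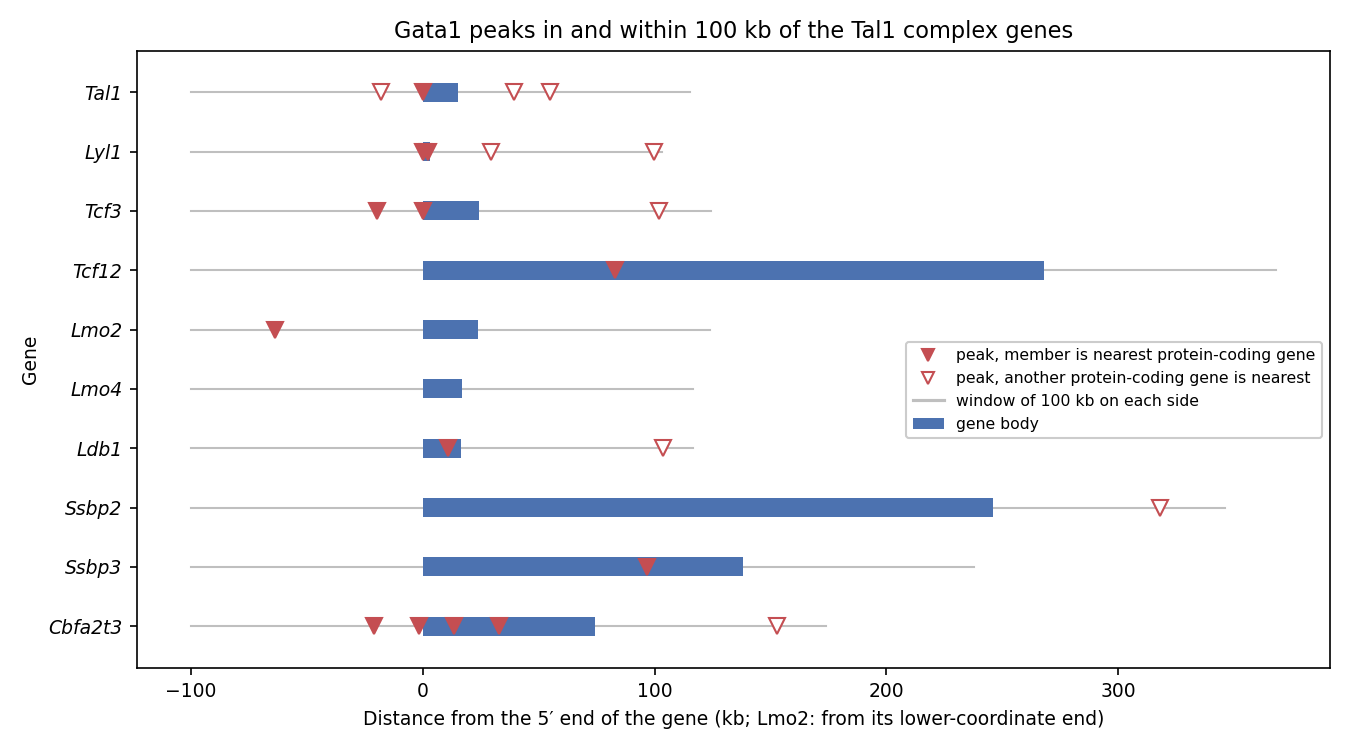
Position of each Gata1 peak (triangles, not drawn to the width of a peak) along 10 genes, in kb from the 5′ end of the gene; Lmo2, whose strand was not listed in the tables used, is drawn from its lower-coordinate end. Bars are gene bodies and grey lines the windows of 100 kb on each side; filled triangles are the 13 peaks whose nearest protein-coding gene is the gene drawn, and open triangles the 9 nearer to another.

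RefSeq lists windows of 300 bases at start sites, and 5 of these were touched by peaks assigned to the genes. They are the only stretches under these peaks with sequence in the tables used, and they are shown so that the motifs of Gata1 and of its partner bHLH factors can be looked for in them. All are of build GRCm38.p6, the assembly also called mm10, and run 5′ to 3′ on the strand of the gene from 250 bases before the start site to 50 bases after it. Capitals mark each match, on either strand, to 1 of 4 GATA hexamers. Those that begin with A are AGATAA and also AGATAG, those that begin with T are TGATAA and also TGATAG, and the first of the 4 reads TTATCT on the opposite strand.
Gm39895, at the Lmo2 peak (chr2:103893810-103894109, plus strand): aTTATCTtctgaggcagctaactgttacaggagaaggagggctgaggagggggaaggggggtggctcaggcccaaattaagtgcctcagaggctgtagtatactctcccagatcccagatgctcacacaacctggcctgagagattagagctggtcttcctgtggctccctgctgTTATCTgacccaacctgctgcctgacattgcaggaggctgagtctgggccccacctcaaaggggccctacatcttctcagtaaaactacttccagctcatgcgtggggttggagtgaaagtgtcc
Ldb1 (chr19:46037021-46037320, minus strand): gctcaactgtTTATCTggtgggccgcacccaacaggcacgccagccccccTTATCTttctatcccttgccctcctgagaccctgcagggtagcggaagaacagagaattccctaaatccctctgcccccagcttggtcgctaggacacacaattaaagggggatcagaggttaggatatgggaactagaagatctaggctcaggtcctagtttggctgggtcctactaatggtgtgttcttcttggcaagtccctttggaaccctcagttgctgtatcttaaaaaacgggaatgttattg
Tcf3 (chr10:80433586-80433885, minus strand): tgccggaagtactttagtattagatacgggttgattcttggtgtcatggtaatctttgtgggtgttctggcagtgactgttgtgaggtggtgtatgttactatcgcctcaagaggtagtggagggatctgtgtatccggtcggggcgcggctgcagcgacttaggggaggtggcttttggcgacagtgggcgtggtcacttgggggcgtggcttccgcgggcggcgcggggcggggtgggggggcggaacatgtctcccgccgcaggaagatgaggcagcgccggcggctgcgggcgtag
Lyl1 (chr8:84701207-84701506, plus strand): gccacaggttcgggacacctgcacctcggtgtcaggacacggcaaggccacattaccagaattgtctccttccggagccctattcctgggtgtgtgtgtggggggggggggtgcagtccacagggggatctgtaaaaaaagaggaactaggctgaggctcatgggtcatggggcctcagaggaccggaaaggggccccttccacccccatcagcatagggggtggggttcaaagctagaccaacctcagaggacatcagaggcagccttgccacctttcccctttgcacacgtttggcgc
Tal1 (chr4:115056176-115056475, plus strand): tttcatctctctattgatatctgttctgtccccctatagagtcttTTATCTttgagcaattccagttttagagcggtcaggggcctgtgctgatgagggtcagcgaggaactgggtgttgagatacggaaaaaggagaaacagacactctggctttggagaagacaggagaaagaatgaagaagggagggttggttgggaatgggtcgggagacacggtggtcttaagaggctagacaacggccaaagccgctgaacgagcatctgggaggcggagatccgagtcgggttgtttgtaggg

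The window at the Lmo2 peak lay wholly inside the peak. It held 2 GATA hexamers, at bases 2 to 7 and 176 to 181, and the centre of the second lay 41.0 bases from the midpoint of the peak. Between them, at bases 116 to 121, stood the E-box CAGATG, a form bound by Tal1 with an E protein. In the Ldb1 window, bases 1 to 179 lay inside the peak and held both of its GATA hexamers, at bases 11 to 16 and 51 to 56. The first of these was centred 34.0 bases from the midpoint of the peak, and an E-box, CAACTG, ended 1 base before it. E-boxes were searched on both strands as CANNTG, of which CAGATG is 1 form, and a CANNTG can share its last letters with TGATAA or with TGATAG.

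The other 3 windows were touched only in part. In the Tcf3 window, bases 1 to 87 were inside the peak, in the Lyl1 window bases 261 to 300 and in the Tal1 window bases 294 to 300. None of these covered bases held a GATA hexamer, which says only that these letters are not in the part shown, since most of each 400 bp peak lay beyond the window. The Tal1 window held a hexamer at bases 46 to 51, outside the peak, and the E-box CATCTG at bases 261 to 266, which is CAGATG on the opposite strand.

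**Figure D2:**
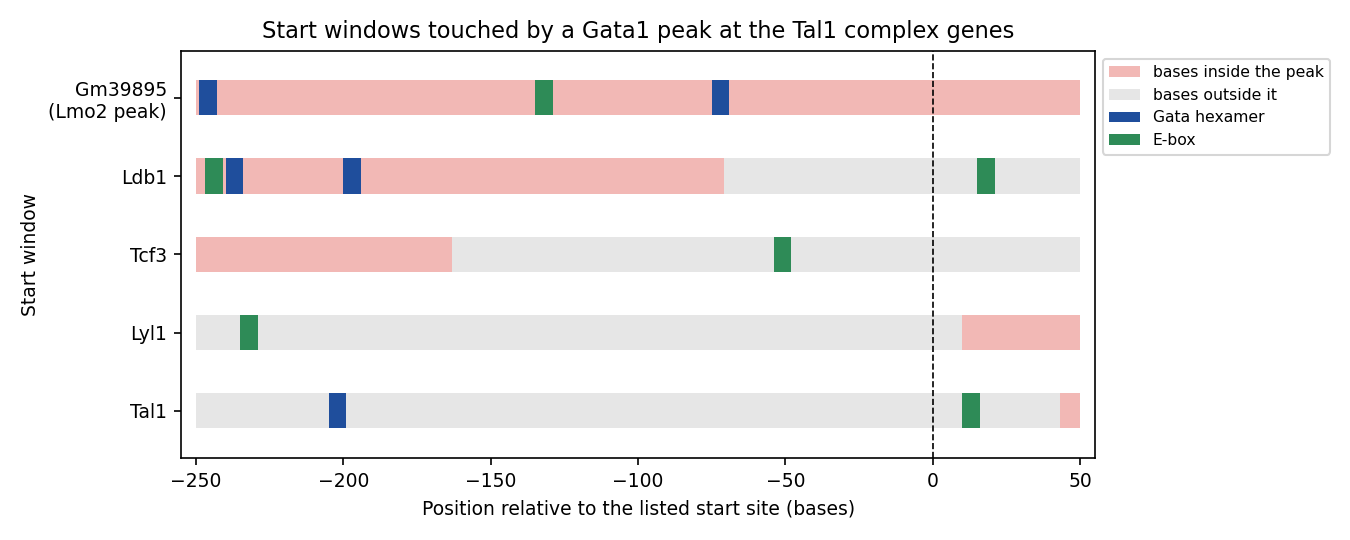
The 5 start windows touched by peaks at these genes, drawn in bases from the listed start site (dashed line). Pink marks bases inside the peak, blue the GATA hexamers and green the E-boxes; the window at the Lmo2 peak is covered over all 300 bases and the Tal1 window over its last 7.

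Of the 18 start windows listed for 9 of the genes, 4 held a GATA hexamer (22.2%), against 29.8% of all 32851 start windows in the table. CANNTG was present in 12 of the 18 (66.7%), against 72.3% of all windows, and CAGATG in 2 of the 18 (11.1%), against 17.2%. Windows of the same gene can overlap, so the 18 are not separate units. For Lmo4, 2 windows overlap and share the same E-box. The windows of these genes were richer in G and C, with a median GC content of 69.3%, against 52.7% over all windows. Among the 121 start windows of any gene that lay wholly inside a Gata1 peak, 73 held a GATA hexamer (60.3%), against the same 29.8% of all windows, and their median GC content was 59.3%. CAGATG was present in 17.4% of those 121 windows and in 17.2% of all windows.

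Tal1 and Lyl1, the tissue-restricted bHLH genes, each carried a peak just after a start site. At Tal1 the peak chr4:115056469-115056868 had its midpoint 0.242 kb downstream of the outermost listed start site. The other 3 Tal1 peaks lay outside the gene and were each nearest to another protein-coding gene. The peak chr4:115038304-115038703 was 17.9 kb upstream of Tal1, inside Stil, a gene for centriole duplication. The peak chr4:115095668-115096067 was 24.1 kb beyond the 3′ end of Tal1 and 39.4 kb from its start site, 1.97 kb from Pdzk1ip1. A known erythroid enhancer of mouse Tal1 lies on that side, beyond Pdzk1ip1. The peak chr4:115111156-115111555, 39.6 kb beyond the 3′ end, fell inside Cyp4x1, a cytochrome P450 gene. The 4 Tal1 peaks were between 15.5 and 18.2 kb from their nearest neighbouring peak, and 3.67% of protein-coding genes had at least 4 peaks within 100 kb, as Tal1 and Lyl1 did.

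Lyl1 is 3.29 kb long and held 2 peaks in its body, and 3.06% of protein-coding genes had at least 2 within 10 kb. The first, chr8:84701467-84701866, was centred 0.209 kb downstream of the start site, and the second, chr8:84703428-84703827, 2.17 kb downstream of it. They were 1.96 kb apart and formed the closest pair among the 22 peaks. Positions alone cannot tell whether such a pair is separate sites. The remaining peaks in its window, at 26.2 and 96.3 kb beyond the 3′ end, both lay inside Nfix, a gene for a nuclear factor I protein, whose annotated body meets the 3′ end of Lyl1. The second of them, chr8:84800857-84801256, spanned the higher-coordinate end of Nfix.

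The E protein genes differed in where their peaks lay. Tcf3 had a peak at its 5′ end, chr10:80433799-80434198, centred 0.0225 kb outside the annotated gene and at -0.363 kb from the listed start site, where a negative distance is upstream. A second peak, chr10:80453624-80454023, lay 19.8 kb upstream of the gene with Tcf3 as its nearest protein-coding gene. The third, 77.3 kb beyond the 3′ end, was inside Reep6 and the lncRNA gene Gm51809. At least 3 peaks within 100 kb were found for 9.18% of protein-coding genes. Tcf12, at 268 kb the longest of the 10 genes, had 1 peak, chr9:72028675-72029074, inside the gene and 82.3 kb downstream of the nearest listed start site. The next peak on the chromosome was 352 kb away.

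The LIM-only genes had 1 peak between them. Lmo2, the bridge of the complex, had no peak within 50 kb and 1 peak at 64.0 kb on its lower-coordinate side, chr2:103893747-103894146. Lmo2 was the nearest protein-coding gene to it, although the peak lay inside the lncRNA gene Gm34948 and covered the start of another lncRNA gene, Gm39895, whose sequence is the first shown above. Distal enhancers of Lmo2 are known in blood cells, and whether this peak marks such an enhancer was not tested. Of protein-coding genes, 43.9% had at least 1 peak within 100 kb, and 63.8% had their nearest peak at least 64.0 kb away. Lmo4 had no peak within 100 kb, and its nearest was 354 kb away, a distance reached or passed by 30.2% of protein-coding genes.

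Ldb1, the scaffold, had 1 peak in the gene, chr19:46037142-46037541, centred at -0.272 kb from the innermost of its 3 listed start sites and 7.97 kb downstream of the outermost. The part of this peak with sequence holds the E-box CAACTG with 1 base between it and a GATA hexamer. That E-box is a match to CANNTG, which 72.3% of all start windows held. In the windows shown, the other pairs of a GATA hexamer and an E-box were 41 to 249 bases apart, so this pair was the closest. How often the motifs lie so close in the start windows of other genes was not counted, and most of the peaks have no sequence here. A second peak, 87.1 kb beyond the 3′ end, was inside Armh3, and 21.0% of protein-coding genes had at least 2 peaks within 100 kb. The Ldb1 stabilisers had 1 peak each within 100 kb, where 43.9% of protein-coding genes had at least 1. Ssbp3 had 1, chr4:107008178-107008577, inside its 138 kb body and 85.2 kb downstream of the nearest listed start site. Ssbp2, of 246 kb, had none in the gene, and the 1 peak in its window was 72.1 kb beyond the 3′ end, inside Acot12, which encodes an acyl-CoA thioesterase.

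Cbfa2t3, the corepressor gene, had the most peaks of the 10, and 4 of its 5 peaks had it as their nearest protein-coding gene. The peaks chr8:122666364-122666763 and chr8:122685513-122685912 lay in the gene, 32.5 and 13.4 kb downstream of the outermost listed start site. From the nearest of the 2 listed start sites they were at 11.6 and -7.54 kb, so the second lay upstream of the inner start site. The peaks chr8:122700711-122701110 and chr8:122720356-122720755 lay upstream of the gene, at -1.8 and -21.4 kb from the outermost start site. These 4 peaks followed each other at spacings of 19.1, 15.2 and 19.6 kb. The fifth, 78.6 kb beyond the 3′ end, was inside Piezo1, the gene of a mechanically gated ion channel with a role in red cells. At least 5 peaks within 100 kb were found for 1.24% of protein-coding genes, and at least 3 within 10 kb, as at Cbfa2t3, for 0.666%.

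**Figure D3:**
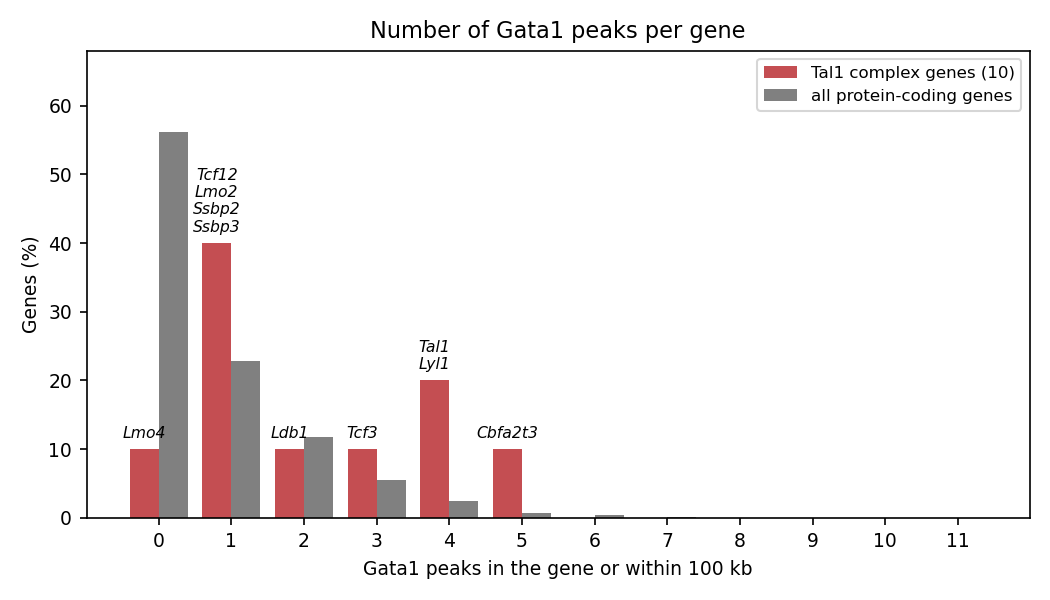
Share of genes (%) by the number of Gata1 peaks in the gene or within 100 kb, for the 10 Tal1 complex genes (red, names above the bars) and all protein-coding genes (grey). Lmo4 is the 1 gene of the 10 at 0, where 56.1% of protein-coding genes sit, and Cbfa2t3 is at 5 with 0.748% of them.

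Taking the 22 peaks together, 8 lay inside their gene, 5 lay outside it with that gene as the nearest protein-coding gene, and 9 were nearer to another protein-coding gene, 8 of these inside it. A peak within 100 kb need not act on the gene it is counted for. Counting only peaks whose nearest protein-coding gene was the gene itself, 8 of the 10 genes had a peak, against 14.2% of protein-coding genes, with Ssbp2 now without one as well as Lmo4. A peak lay within 1 kb of a listed start site for 4 of the 9 genes with such a site (Tal1, Lyl1, Tcf3 and Ldb1), against 4.26% of the 17492 protein-coding genes with one.

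The windows of the 10 genes cover 2.83 Mb and held peaks at 7.78 per Mb (exact Poisson interval at 95%, 4.88 to 11.8). Over the annotated span of the autosomes the density was 1.70 per Mb (1.65 to 1.75). That span includes stretches far from genes, so it is unlike windows placed on genes. With the same window of 100 kb, the mean was 2.2 peaks per gene, against 0.796 over all protein-coding genes. In the gene bodies the density was 9.68 peaks per Mb (4.18 to 19.1), against 2.45 (2.35 to 2.55) over the bodies of autosomal protein-coding genes. These intervals cover counting error only and treat peaks as independent. Gene length also bears on the count in a body. Of the 4 genes under 20 kb, 3 had a peak in the body (Tal1, Lyl1 and Ldb1), against 4.21% of protein-coding genes of that length. Of the 3 genes over 100 kb, 2 had one (Tcf12 and Ssbp3), against 24.5% of genes of that length. Of the 3 genes of 20 to 100 kb, Cbfa2t3 alone had one, against 12.5%.

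Among the families, all 4 bHLH and E protein genes had a peak in the gene or within 10 kb, against 16.5% of protein-coding genes, as did 2 of the 3 genes for Ldb1 and its stabilisers and the corepressor gene Cbfa2t3, but neither LIM-only gene. These are counts of single genes and were not tested against each other.

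The surrounding network was described with a list of 34 further genes. Among close paralogs of the 10 genes, 1 of 10 had a peak in the gene body, near the 9.34% of all protein-coding genes, and 3 of 10 had one within 100 kb, against 43.9%. Runx1t1, a relative of Cbfa2t3, had 2 peaks in the gene, Ssbp4 had its nearest at 3.68 kb and Lmo1 at 23.4 kb. Ldb2, the paralog of Ldb1, had its nearest peak at 479 kb, Tcf4, the third E protein gene, at 876 kb, and Tal2 at 348 kb. Nhlh1, Nhlh2, Lmo3 and Cbfa2t2 also had none within 100 kb.

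Factors that bind with the complex had a peak in the gene or within 10 kb in 7 of 8 cases, against 16.5% of protein-coding genes. In the gene body alone it was 5 of 8 (62.5%), close to the 60.0% of the 10 complex genes, against 9.34%. Within 100 kb, Zfpm1, which encodes the Gata1 cofactor FOG-1, had 8 peaks, Gata2 had 7, Fli1 and Gfi1b had 5 each, Runx1 had 4, and Gata1 and Klf1 had 2 each. Erg had none, with its nearest at 275 kb. Genes of co-regulators had a peak within 10 kb in 3 of 8 cases, against the same 16.5%, with 3 peaks at Rcor1 (CoREST), 1 at Sin3a and 1 at Irf2bp2. Hdac1, Ep300 and Crebbp had their nearest at 39.7, 63.1 and 54.4 kb, and the histone demethylase gene Kdm1a and Hdac2 had none within 100 kb.

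Of 5 inhibitor genes, 2 had a peak within 10 kb, against 16.5% of protein-coding genes. Id1, whose product sequesters E proteins, had 1 peak in the gene and 3 within 100 kb, and Id3 had its nearest at 3.45 kb. The nearest peak to Id4 was at 23.5 kb, and Id2 and Rlim, the gene of a ubiquitin ligase for Ldb1 and LIM-only proteins, had none within 100 kb. The 3 target genes of the complex described here, Epb42 (protein 4.2), Kit and Slc4a1 (band 3), all had a peak in the gene, against 9.34% of protein-coding genes. Set side by side, 7 of the 10 complex genes had a peak within 10 kb (70.0%, 95% Wilson interval 39.7 to 89.2%), and 17 of the 34 further genes did (interval 34.1 to 65.9%). The lists differ in gene length and number and were not tested against each other.

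**Figure D4:**
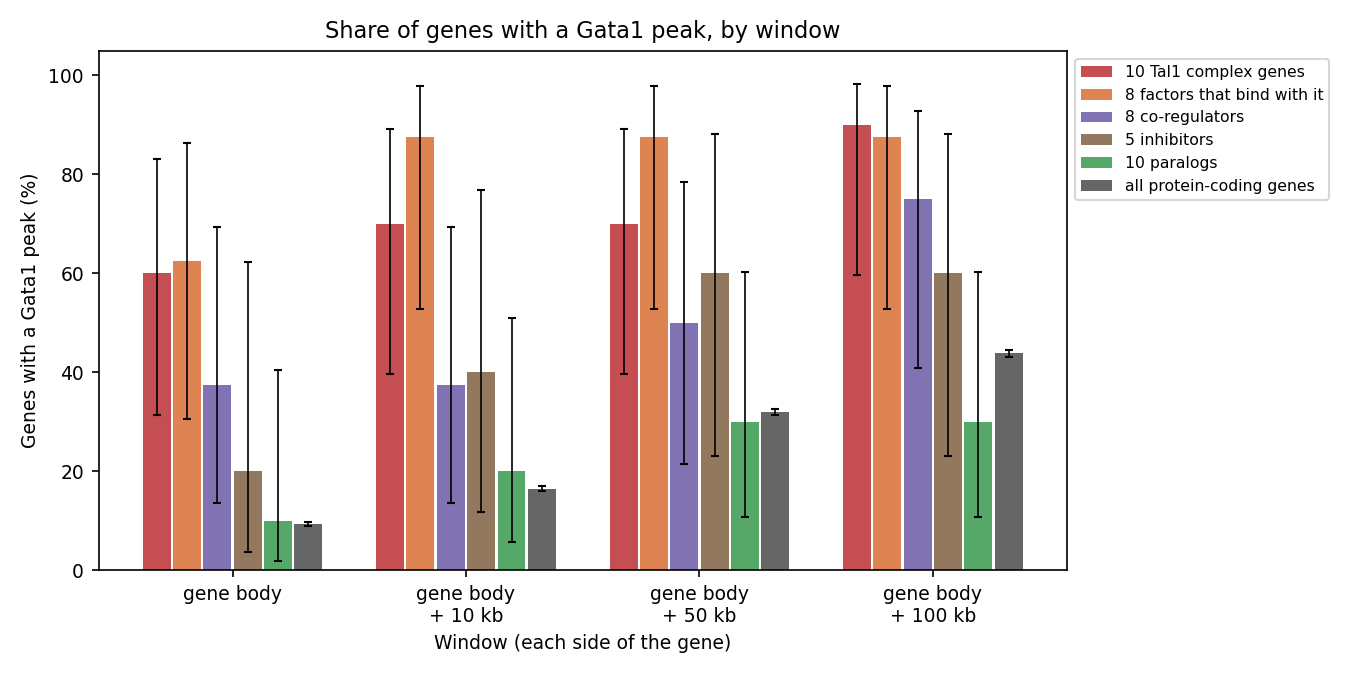
Share of genes (%) with a Gata1 peak midpoint in the gene body or within 10, 50 or 100 kb of it, with 95% Wilson intervals, which cover counting of genes only. In the gene body, 60.0% of the 10 Tal1 complex genes and 1 of their 10 paralogs had a peak, beside 9.34% of all protein-coding genes; the intervals of the small lists are wide.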

How the data were processed

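Peak positions were taken from the authors' deposited list for 1 Gata1 ChIP library: chromosome, start and end on mm10, with no header and no value per peak. Bowtie2 2.0.6 and MACS2 2.0.10 are named in the submitters' processing notes. How the authors set them, where the calling threshold lay and whether the control was used is not given in the sources used here. Depth is unknown, and with 1 library no test over samples was possible. Genes were placed with RefSeq's GRCm38.p6 annotation, without 340 autosomal or X-linked entries whose start lay below 3 Mb (scaffold coordinates) and without mitochondrial genes. Strands and start sites came from RefSeq start windows, which listed 9 of the 10 genes. Peaks were counted by midpoint, printed 1-based, with Python 3.11.15, numpy 2.4.6, scipy 1.17.1, pandas 2.3.3 and matplotlib 3.10.9, and the counting was tested on simulated peaks. The 10 genes and the 34 further genes, all of which matched the table, were chosen with earlier results of these data known. All 10 genes and all 34 are named, with the genes that hold or neighbour a peak; 1 further gene of the list is not reported here. Counts of genes with a peak are set against shares of all protein-coding genes, in place of a test. The windows of 10, 50 and 200 kb, the gene body, any overlap, the nearest gene, runs of peaks and start sites were alternatives.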

Additional observations from a re-analysis of the deposited data

How the results depend on the processing

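Of the 10 genes, 9 had a peak with the window of 100 kb. The number was 9 with 200 kb, 7 with 50 kb, 7 with 10 kb and 6 in the gene body. It was 9 with any overlap and 8 with only peaks whose nearest protein-coding gene was the gene itself. With peaks within 1 kb of each other counted once it was also 9. That setting could not change it, since no neighbour of the 22 peaks was closer than 1.96 kb. The total of 22 peaks was 31 with 200 kb and 16 with 50 kb, and moved by over 1.5 times with 10 kb (10 peaks), the gene body (8 peaks) and the nearest gene (13 peaks), which admit fewer peaks by construction. With 100 kb around listed start sites, an alternative chosen after seeing the data and covering 9 genes, 7 genes and 18 peaks remained in reach. The share of all protein-coding genes was not computed for this alternative, so its counts cannot be set against a background. The same holds for any overlap and for peaks within 1 kb of each other counted once. Of the 9 genes with listed start windows, 4 had a GATA hexamer in at least 1 window, and 6 had the 4 letters GATA. The share over all genes was not computed by gene, so these 2 counts have no background. Counted by window, the 4 letters were in 38.9% of the windows of these genes, against 57.9% of all start windows. For the hexamer the shares were 22.2% and 29.8%. A stricter peak threshold was not run, because the list holds no score. No paired analysis was possible because each group has 1 library and no result comes from a test. The depth of the library is unknown and limits every count in the same way: absence of a peak means that none was called.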
